A study of Mus musculus with 2 samples.

Results

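Imprinted genes and the control regions that govern them were examined in a DNase-seq map of mouse embryonic midbrain. The genes were 34 named imprinted genes, coding and noncoding, of 53843 annotated genes on chromosomes 1 to 19 and X, and they fell into 16 imprinted clusters. They were taken by name, and no measured value enters the rule, though the list was chosen with earlier results of these data known. A further 16 control regions, 1 for each cluster, were placed by their distance from a gene's transcription start site (TSS). DNase-seq finds stretches of chromatin that the enzyme DNase I can cut, and its peaks mark promoters, enhancers, insulators and other open sites. The series held 1 group of 2 biological replicates of healthy midbrain from B6NCrl embryos at embryonic day 11.5, with male and female embryos pooled. There was no mutant, treatment, other tissue or later stage, so the comparisons are of imprinted genes with the other genes of the same libraries, and of replicate with replicate. B6NCrl is an inbred strain and the deposited lists give no allele, so the maternal and paternal copies cannot be told apart. A peak may come from either copy or from both. In whole tissue, a larger share of cells with an open site and more cutting at the site in each cell cannot be told apart either.

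Imprinted genes are expressed mainly or only from the copy inherited from the mother or only from the copy inherited from the father. The choice is set in the germ cells by DNA methylation at a control region, also called an imprinting control region (ICR) or a differentially methylated region (DMR). Most control regions are promoters methylated in the egg, while a few intergenic ones, at H19, Rasgrf1 and between Dlk1 and Meg3, are methylated in sperm. The zinc finger protein ZFP57 binds the methylated copy and helps to keep its methylation in the early embryo, and the insulator protein CTCF binds the unmethylated copy of the H19 ICR. Many imprinted genes act in growth, placenta and brain, and some are imprinted in neurons alone or in placenta alone.

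The following open sites of control regions are shown because their sequences hold the short motifs counted further on. Each is a shared site, that is, the merged stretch of overlapping peaks of both replicates, given on build mm10 on the strand of the anchoring gene and credited to the RefSeq copy of GRCm38.p6. Capitals mark the CTCF core GGNGGCAG, the ZFP57 hexamer TGCCGC or its reverse complement GCGGCA, and the YY1 core GCCATNTT. In the H19 ICR site farthest from H19, 1 hexamer lies within a CTCF core, so the capitals of both run together.
H19 ICR site nearest to H19, chr7:142580216-142580365, minus strand: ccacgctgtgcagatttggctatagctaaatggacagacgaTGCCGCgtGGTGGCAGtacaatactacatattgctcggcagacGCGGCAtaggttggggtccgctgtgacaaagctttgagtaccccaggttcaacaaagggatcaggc
H19 ICR middle site, chr7:142580676-142580825, minus strand: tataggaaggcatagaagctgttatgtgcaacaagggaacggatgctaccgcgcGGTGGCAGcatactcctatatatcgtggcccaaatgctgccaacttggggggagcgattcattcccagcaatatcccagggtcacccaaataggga
H19 ICR site farthest from H19, chr7:142581736-142581925, minus strand: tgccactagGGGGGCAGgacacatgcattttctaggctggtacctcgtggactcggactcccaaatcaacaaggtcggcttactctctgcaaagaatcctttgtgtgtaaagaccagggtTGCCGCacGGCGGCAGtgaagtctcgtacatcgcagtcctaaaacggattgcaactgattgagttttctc
KvDMR1, chr7:143295556-143295845, minus strand: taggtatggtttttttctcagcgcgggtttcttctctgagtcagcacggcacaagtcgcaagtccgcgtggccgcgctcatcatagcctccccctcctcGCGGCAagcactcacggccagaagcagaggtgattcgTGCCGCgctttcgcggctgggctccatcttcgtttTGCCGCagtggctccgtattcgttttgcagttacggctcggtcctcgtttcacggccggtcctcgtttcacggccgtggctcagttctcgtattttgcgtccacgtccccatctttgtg
Peg3 DMR, chr7:6729516-6729665, minus strand: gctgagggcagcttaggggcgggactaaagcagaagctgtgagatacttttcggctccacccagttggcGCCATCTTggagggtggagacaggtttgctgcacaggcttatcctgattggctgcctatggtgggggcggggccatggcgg
Snrpn DMR, chr7:60004156-60004365, minus strand: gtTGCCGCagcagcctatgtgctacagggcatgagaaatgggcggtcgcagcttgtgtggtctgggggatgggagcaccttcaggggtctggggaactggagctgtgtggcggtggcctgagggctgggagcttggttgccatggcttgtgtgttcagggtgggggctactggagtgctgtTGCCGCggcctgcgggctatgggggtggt
Rasgrf1 DMR, chr9:89879736-89879905, plus strand: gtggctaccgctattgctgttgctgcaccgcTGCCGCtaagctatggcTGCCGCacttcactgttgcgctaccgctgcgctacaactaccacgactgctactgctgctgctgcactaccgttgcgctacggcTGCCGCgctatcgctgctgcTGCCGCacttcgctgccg

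Signals below are the authors' whole-number values for each peak, with no stated normalization, so a value is read within its own replicate or beside other peaks of the same list. At a gene or promoter, each replicate's value is that of its own highest peak in the window. Values of both replicates may thus come from peaks that do not overlap, as at Snrpn, Nnat and Impact. Replicate 1 had 305818 peaks with a median signal of 18, and replicate 2 had 454408 with a median of 8. All 8 midbrain and neural markers (En1, En2, Otx2, Lmx1b, Pax2, Sox2, Tubb3 and Map2) had a TSS peak in both replicates. Of 8 markers of mesenchyme, endothelium, erythroid cells and microglia, only Col1a1 did, with signals of 93 and 59 in replicates 1 and 2. Col3a1 had a peak of signal 5 in replicate 2 only, and Cdh5, Emcn, Alas2, Hbb-bh1, Aif1 and C1qb had none.

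A peak lay within 500 bp of a TSS in both replicates at 31 of the 34 imprinted genes. By the same rule, 35.5% of all annotated genes and 67.3% of protein-coding genes were open. Base composition differed too. A CpG-rich TSS, taken here as an observed to expected CpG ratio above 0.6 in 1 kb, was present at 26 of the imprinted genes. All 26 were open, beside 95.4% of all genes with such a TSS, so the share was near its background. The imprinted genes also had a median of 5 annotated TSSs, against 3 for protein-coding genes.

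Signal at the open imprinted promoters was lower than at CpG-rich promoters in general. Its median over the 31 open imprinted genes was 94 in replicate 1 and 61 in replicate 2, against 118 and 74 over open genes with a CpG-rich TSS. The sets are not alike, since H19, Zim1, Snrpn, Magel2 and Meg3 are among the 31 and have no CpG-rich TSS. The peaks shared by Peg3 and Usp29, and by Peg10 and Sgce, also count for each gene. Values ran from 25 to 144 in replicate 1 and from 19 to 99 in replicate 2. The higher value was that of replicate 1 at 28 of the 31, or 90.3%, beside 94.4% of all 19097 open genes. The exceptions were Igf2, Phlda2 and Klf14. No test accompanies these values, since a single group leaves nothing to test between conditions and genes are not replicates.

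**Figure D1:**
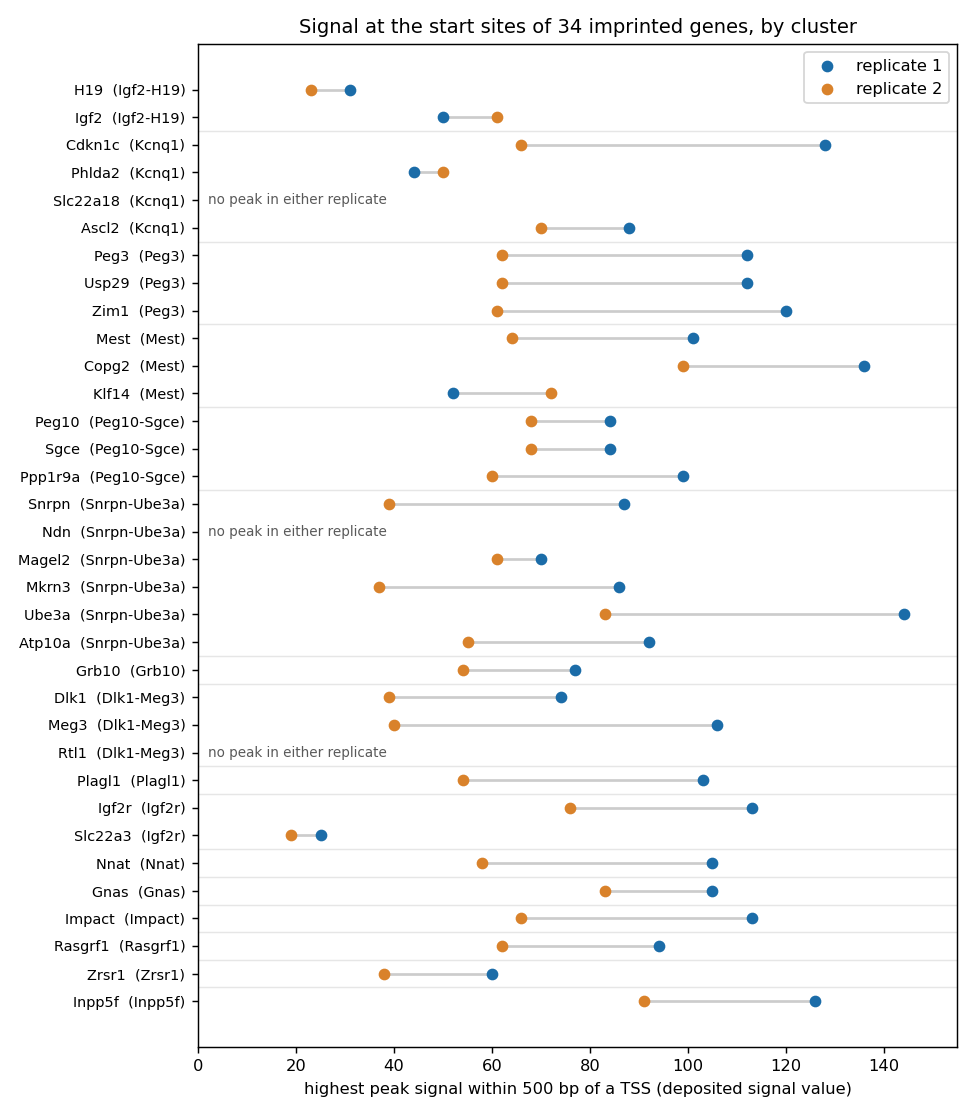
The highest deposited peak signal within 500 bp of a TSS (horizontal axis, authors' units) is plotted for each of the 34 imprinted genes, with the cluster in brackets, blue points for replicate 1 and orange points for replicate 2. Ube3a and Copg2 lie at the right with 144 and 136 in replicate 1, Slc22a3 and H19 at the left with 25 and 31, and Slc22a18, Ndn and Rtl1 have no peak.

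The strongest promoters were those of Copg2, Ube3a and Inpp5f. Copg2, a coatomer subunit of vesicle transport, had TSS signals of 136 and 99 in replicates 1 and 2, which were the highest mean percentile of the 31. Ube3a, a ubiquitin ligase that is silenced on the paternal copy in neurons, followed with 144 and 83. The upstream promoter of Inpp5f, a phosphoinositide phosphatase, had 126 and 91. All 3 stood above the 99th percentile of peaks in replicate 2. At the other end, Slc22a3, an organic cation transporter imprinted in placenta, had 25 and 19, and H19, a noncoding RNA expressed from the maternal copy, had 31 and 23.

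In the Igf2-H19 cluster the growth factor gene Igf2 and H19 share enhancers, and the H19 ICR lies between them. The gene Igf2 had 6 promoters by annotation, counting TSSs within 1000 bp of each other as 1. Peaks of both replicates lay at only 2 of them, with signals of 50 and 61 at the stronger and 47 and 53 at the next, for replicates 1 and 2. The other 4 had peaks of signal 14 to 31 in replicate 2 alone. Counted over all its TSSs, Igf2 had 2 peaks in replicate 1 and 15 in replicate 2. The hotspot at its TSSs, a wider stretch of enriched cutting, was at most 230 bp wide in replicate 1 and 2317 bp in replicate 2. At H19 the hotspot was 142 bp wide with a −log10 q of 2.12 in replicate 1 and 1693 bp with 6 in replicate 2. The ICR itself was stronger than the H19 promoter in both libraries. Its highest peak had a signal of 69 in replicate 1 and 37 in replicate 2. The 3 shared sites with peaks of both replicates in its window had signals of 61 to 69 in replicate 1 and of 32 to 37 in replicate 2. A further shared site, 3998 bp upstream of the nearest H19 TSS, straddled the outer edge of the window with 47 and 17, and only its replicate 1 peak lay inside.

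The Kcnq1 cluster is silenced on the paternal copy through the noncoding RNA Kcnq1ot1, whose promoter is KvDMR1. Cdkn1c, an inhibitor of the cell cycle, had TSS signals of 128 and 66 in replicates 1 and 2. Ascl2, a transcription factor needed in placenta, had 88 and 70, and Phlda2, which restrains placental growth, had 44 and 50. Slc22a18, a membrane transporter, had no peak within 500 bp of any of its 5 TSSs in either replicate. None of those TSSs was CpG-rich. KvDMR1 had a highest signal of 120 in replicate 1 and 43 in replicate 2, and 3 shared sites. The site printed above lay 848 bp inside Kcnq1ot1 with 51 and 35. The span of Cdkn1c also held shared sites away from TSSs, among them sites 3011 and 5421 bp upstream with signals of 82 and 54 and of 80 and 53.

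In the Peg3 cluster the zinc finger gene Peg3 and the ubiquitin protease gene Usp29 run in opposite directions from a shared promoter. Its peak had a signal of 112 in replicate 1 and 62 in replicate 2 and counted for both genes. Zim1, a maternally expressed zinc finger gene next to them, had 120 and 61. The hotspot over the Peg3 promoter was 4014 bp wide in replicate 1 and 4046 bp in replicate 2, the widest of the 16 control regions in both. Within 1000 bp of the TSS, the strongest peak in replicate 1 was not at the TSS but in the Peg3 intron 828 bp away, at the site printed above, with 115 and 52. A further shared site, 2508 bp from the TSS, had 100 and 43.

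Mest, of the hydrolase family, had signals of 101 and 64 in replicates 1 and 2 at the promoter that is its DMR. Peaks lay in replicate 2 alone at 3 of its other 5 promoters, with signals from 17 to 26. Klf14, a maternally expressed transcription factor gene with a single TSS, had 52 and 72. A second site in the Mest DMR, 949 bp from the TSS, had 103 and 63, about the level of the promoter. In the Peg10-Sgce cluster, Peg10, derived from a retrotransposon and needed in placenta, shares a promoter with Sgce, which encodes epsilon-sarcoglycan. That promoter had 84 and 68 in replicates 1 and 2. An intronic site of Peg10, 1885 bp from its TSS at chr6:4749216-4749365, was stronger in replicate 1, with 108 and 63. Ppp1r9a, which encodes the actin-binding protein neurabin, had 93 and 60 at its upstream promoter and 99 and 53 at a TSS inside the gene.

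The Snrpn-Ube3a cluster, studied for Prader-Willi and Angelman syndromes in people, held 6 of the genes. At Snrpn, a splicing protein gene, the DMR promoter had 87 in replicate 1 and 39 in replicate 2, against 30 and 25 at the upstream promoter. The intronic site 850 bp from the DMR promoter's TSS, printed above, had 95 and 45. Mkrn3, a makorin zinc finger gene, had 86 and 37, and Magel2, of the MAGE family, had 70 and 61. Atp10a, a phospholipid flippase gene, had 92 and 55. Ndn, the necdin gene of the MAGE family, had no peak within 500 bp of its single GENCODE TSS. That TSS lay 1708 bp from the RefSeq TSS of Ndn, where peaks of 95 and 50 were present. The shared site there was chr7:62348196-62348425, which is annotated as exon in GENCODE. So the call of Ndn as closed depends on the annotation.

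Grb10, an adaptor that dampens insulin signalling, is maternally expressed in most tissues and paternally expressed in neurons, from different promoters. The internal promoter, which is the DMR, had signals of 77 and 43 in replicates 1 and 2. The upstream CpG-rich promoter had 71 and 54, so replicates 1 and 2 put these promoters in opposite orders. Gnas, the gene of the stimulatory G protein alpha subunit, has promoters with different imprints. Its Gs alpha promoter had 105 and 83, the promoter just upstream 80 and 48, the Nesp promoter 69 and 39, and the XL promoter 68 and 32. Here the order was the same in both replicates, with little between the Nesp and XL promoters in replicate 1. Nespas, an antisense RNA whose promoter lies in the germline DMR, had 125 and 56. Its window was placed at the 5′-most TSS after values had been seen, because its most CpG-rich TSS adjoins the Nesp promoter. With that earlier placing, its signals were 29 and 27.

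The Dlk1-Meg3 cluster is controlled by the intergenic IG-DMR. The paternally expressed gene Dlk1, which encodes a ligand-like membrane protein related to Notch ligands, had TSS signals of 74 and 39 in replicates 1 and 2. Meg3, a maternally expressed noncoding RNA, had 75 and 40 at its 5′ promoter, from peaks that did not overlap. A TSS group inside Meg3 had 106 and 32, so that the strongest TSS peak in replicate 1 was internal. Rtl1, derived from a retrotransposon and needed in placenta, had no peak within 500 bp of its single TSS in either replicate. Of 4 shared sites upstream of Dlk1, those 6842 and 14902 bp away were stronger than its promoter in both replicates, with 107 and 48 and with 82 and 59. The site 7142 bp away had 66 and 33, weaker in both, and the site 2712 bp away had 55 and 49, weaker in replicate 1 and stronger in replicate 2. The IG-DMR had 3 peaks in replicate 1, the highest of signal 71, and 4 in replicate 2, the highest of signal 27. None of these peaks overlapped between replicates, and this was the only control region of 16 without a shared site.

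Among the single-gene clusters, Plagl1, a zinc finger transcription factor gene, had 103 and 54 in replicates 1 and 2 at its DMR promoter. Nnat, which encodes the proteolipid neuronatin of developing brain, had 105 and 58. Impact, whose product inhibits activation of the kinase Gcn2, had 113 and 66. Zrsr1, a retrogene, had 60 and 38. Rasgrf1, a Ras exchange factor gene of neurons, had 94 and 62 at its promoter. Its control region, 26 to 34 kb upstream, held 2 peaks in replicate 1 and 10 in replicate 2. Only the site printed above, 30087 bp upstream, was shared, with 60 and 37. Igf2r, the receptor that clears Igf2, had 113 and 76 at its own promoter. Airn, the antisense noncoding RNA that starts from the DMR inside Igf2r, had 58 and 30. At Inpp5f the internal promoter, which is the imprinted one, had 100 and 54, against 126 and 91 at the upstream promoter.

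**Figure D2:**
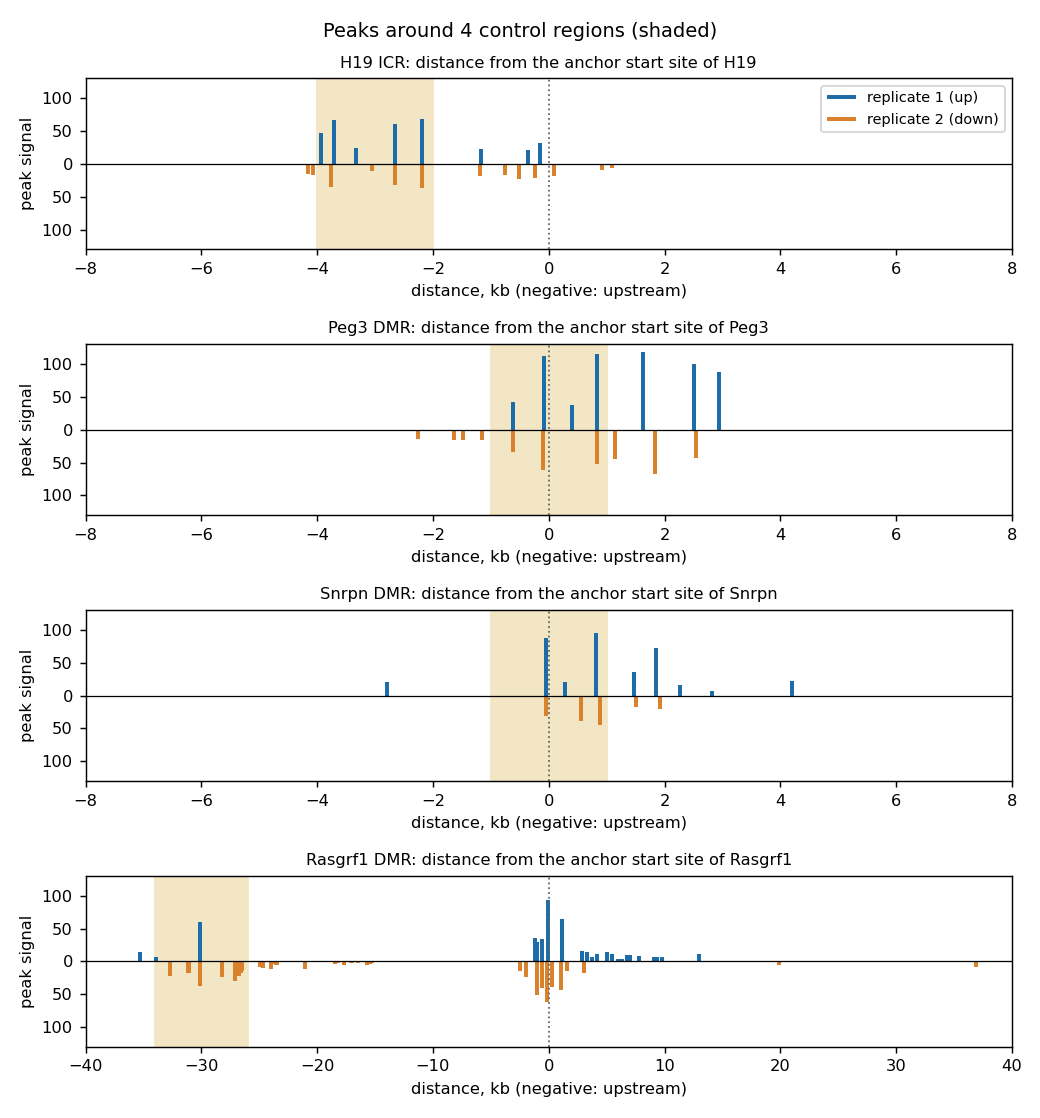
Peaks around 4 control regions are drawn as bars whose height is the deposited signal, replicate 1 upward in blue and replicate 2 downward in orange, by distance in kb from the anchoring TSS (dotted line), with the control region shaded. The H19 ICR holds 3 places where bars of both replicates meet and the Rasgrf1 region 1, with signals of 60 and 37, while Peg3 and Snrpn have peaks of both at the TSS and within the gene.

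All 16 control regions held a peak of both replicates, and 15 held overlapping peaks, 32 shared sites in all. In replicate 2 the highest hotspot −log10 q was 2.215 at the IG-DMR and 5 at the Rasgrf1 region. At every other control region it was 100, the ceiling of that value, as it was at all of them in replicate 1. For comparison, 95.6% of genes with a CpG-rich TSS had peaks of both replicates within 1000 bp of that TSS, the window used for the 13 control regions that are promoters. All 13 were open, a share near that background. No background share was computed for the intergenic windows at H19, Meg3 and Rasgrf1. Those at Meg3 and Rasgrf1 were longer, and a longer window holds a peak more readily. Signals of the 13 control promoters were lower. The 13 control promoters had a median of 100 and a range of 58 to 125 in replicate 1, against a median of 118 and quartiles of 98 and 129 over 13384 open CpG-rich promoters. In replicate 2 the median was 54 and the range 30 to 68, against a median of 74 and quartiles of 62 and 84. Below the median of CpG-rich promoters were 11 of the 13 in replicate 1 and all 13 in replicate 2. Only KvDMR1 and Nespas exceeded it in replicate 1. The value of 125 was that of Nespas, whose window was moved after values had been seen. With its earlier placing, Nespas had 29 and 27, below the ranges given here. A CpG-rich anchor was present at 9 of the 13, and all 9 lay below the median of CpG-rich promoters in both replicates.

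Low signal was also seen at other promoters of the imprinted genes. The other 21 CpG-rich promoters of the imprinted genes had a median of 88 in replicate 1 and 60 in replicate 2 in the same window of 1000 bp around the most CpG-rich TSS, and 17 and 16 of them lay below the same medians. Within 500 bp of any TSS of each promoter their medians were 86 and 60. Their maxima were 144 and 99, above those of the control promoters. The sets compared are not alike. The set of all CpG-rich promoters takes 1 promoter per gene, at its most CpG-rich TSS. The 21 include more than 1 promoter of Igf2 and of Gnas, and the control promoters of Grb10 and Nespas were not at the most CpG-rich TSS of their gene. The control promoters and the other 21 were also not fully separate. The 1000 bp window of the upstream Zrsr1 promoter took in the Zrsr1 DMR peaks of 60 and 38, against 46 and 17 within 500 bp. Methylation was not measured, so some of the 21 may be differentially methylated as well. Hotspot width gave no common direction, with a median of 907 bp over the control promoters against 1134 bp over CpG-rich promoters in replicate 1, and 1901 bp against 1666 bp in replicate 2.

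**Figure D3:**
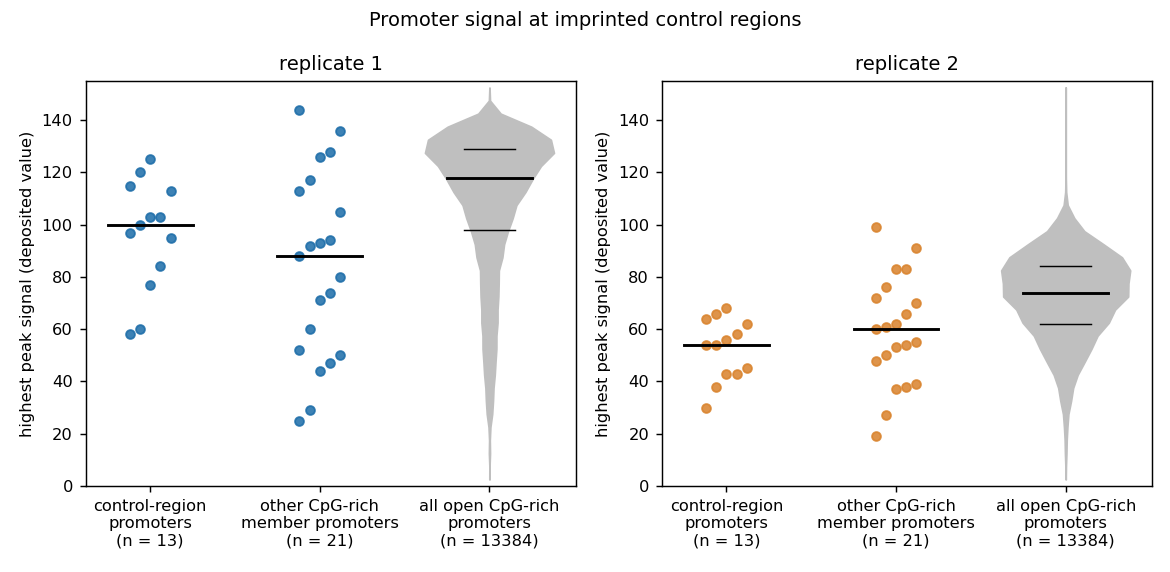
The highest peak signal (vertical axis, authors' units) is shown for the 13 control-region promoters, the other 21 CpG-rich promoters of imprinted genes and all 13384 open CpG-rich promoters, in a panel for each replicate. Points are promoters, the grey shape is the distribution over all CpG-rich promoters, thick lines are medians and thin lines quartiles. The control promoters have medians of 100 and 54, against 118 and 74 for all.

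The ZFP57 hexamer was found on either strand in 12 of the 32 shared sites of control regions, or 37.5%, in 150 bp around the midpoint. It was found in 15.98% of shared sites at CpG-rich promoters and in 6.47% of all 89717 shared sites. Over their full length, 14 of the 32 sites held 26 matches and lay in 11 of the 16 regions. The Rasgrf1 site held 4, and the printed sites of KvDMR1 and Snrpn held 3 and 2. The CTCF core was found in 3 of the 32 sites, or 9.38%, close to 10.0% at CpG-rich promoters and 9.90% of all shared sites. All 3 were the sites of the H19 ICR, where every shared site held it, with 4 matches. The YY1 core was in 1 site, or 3.13%, against 4.92% at CpG-rich promoters and 2.94% of all, and this was the intronic Peg3 site. Over their full length 2 sites held it, the other being a site of the Nespas DMR. The NRF1 motif GCATGCGC was in 2 sites, or 6.25%, against 4.10% and 1.09%. Sites of a control region share their locus, so they are not separate observations of the motif, and a match shows letters and not a bound factor.

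**Figure D4:**
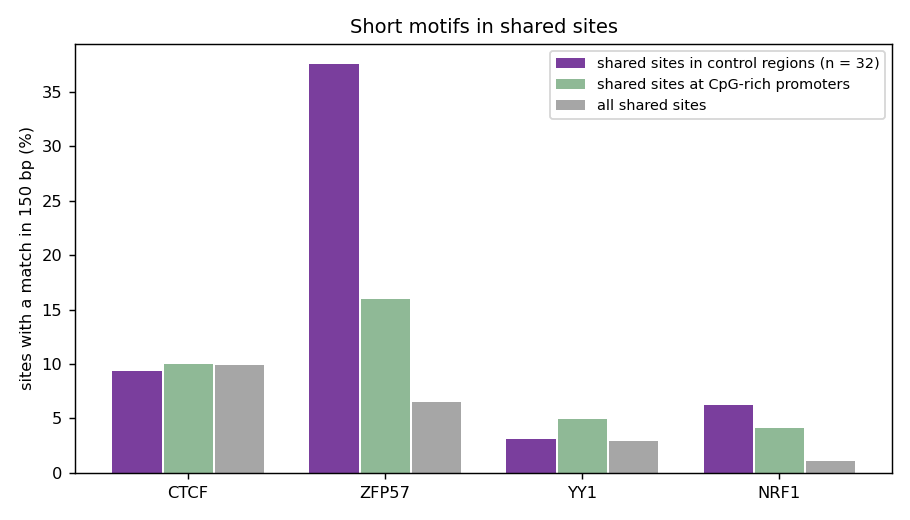
Bars give the percent of shared sites with a match on either strand in 150 bp, for 4 motifs, in the 32 sites of control regions (purple), at CpG-rich promoters (green) and over all shared sites (grey). The ZFP57 bar stands at 37.5% for control regions against 15.98% and 6.47%, while the CTCF bars are close to each other.

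The surroundings of the imprinted genes, from 20 kb before to 20 kb after each gene, covered 3108 kb in all. They held 522 peaks in replicate 1, 865 in replicate 2 and 250 shared sites. Of these sites, 75 lay within 500 bp of a TSS of any gene and 105 more than 2500 bp from every TSS. The median over imprinted genes was 17.0 peaks per 100 kb in replicate 1 and 30.5 in replicate 2. Protein-coding genes had medians of 12.8 and 18.8, and all annotated genes 9.99 and 14.4. Shared sites had a median of 9.11 per 100 kb, against 5.52 for protein-coding genes and 3.95 for all genes. A larger part of the peaks was shared, 50% in replicate 1 and 32.5% in replicate 2, against 31.1% and 22.4% genome-wide. The genome-wide shares include peaks far from genes, and no such share was computed for the spans of other genes. Spans of neighbouring members overlap, so a peak may count for more than 1 gene in the medians.

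Density differed widely among the genes. Mkrn3 had the highest, 42.3 shared sites per 100 kb, from 18 shared sites among 22 peaks in replicate 1 and 66 in replicate 2. Cdkn1c followed with 30.4, Nnat with 23.6 and Slc22a18 with 22.9. All 15 shared sites in the span of Slc22a18 also lay in that of Cdkn1c (10) or Phlda2 (5), and 1 lay inside Slc22a18 itself. Atp10a had the lowest, 1.41, followed by Slc22a3 with 1.55. Ube3a, with one of the strongest promoters, had 2.44. Its span held 36 peaks in replicate 1 and 12 in replicate 2, of which 3 sites were shared. By the copy known to be expressed, 13 of 14 maternally expressed genes, 15 of 17 paternally expressed genes and all 3 with mixed imprints were open at a TSS, beside 67.3% of protein-coding genes and 95.4% of genes with a CpG-rich TSS. The difference between these groups was not tested. Their pooled spans held 5.23, 9.82 and 11.7 shared sites per 100 kb in that order. These densities were not adjusted for gene length. The 1433 kb of the maternal group include the long spans of Ppp1r9a, Atp10a and Copg2, of 302.7, 213.3 and 189.2 kb. Some sites count in more than 1 group, since the span of Copg2 takes in the shared sites of Mest, and those of Zim1 and Peg3 overlap. The expressed copy was not measured here.

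The replicates differed most at a few clusters. Genome-wide, replicate 2 had 1.49 peaks for each peak of replicate 1. The ratio was 3.86 in the Igf2-H19 cluster, with 54 peaks in replicate 2 and 14 in replicate 1. It was 2.62 in the Peg3 cluster, 2.61 in the Kcnq1 cluster, 2.36 at Nnat and 2.11 at Plagl1, and 0.96 at Rasgrf1. Over 10322 protein-coding spans with at least 10 peaks in replicate 1, the ratio had a median of 1.33 and ran from 0.25 at the 5th percentile to 4.15 at the 95th. The Igf2-H19 value was inside that range, but it is for a cluster and the range is for spans of single genes. A minimum set on replicate 1 peaks also favours spans with a low ratio. The spans of Igf2 and H19 had 5 and 9 peaks in replicate 1, below that minimum, and 32 and 22 in replicate 2. The libraries were sequenced on different sets of instruments, and with 1 library for each, instrument and replicate cannot be told apart.

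**Figure D5:**
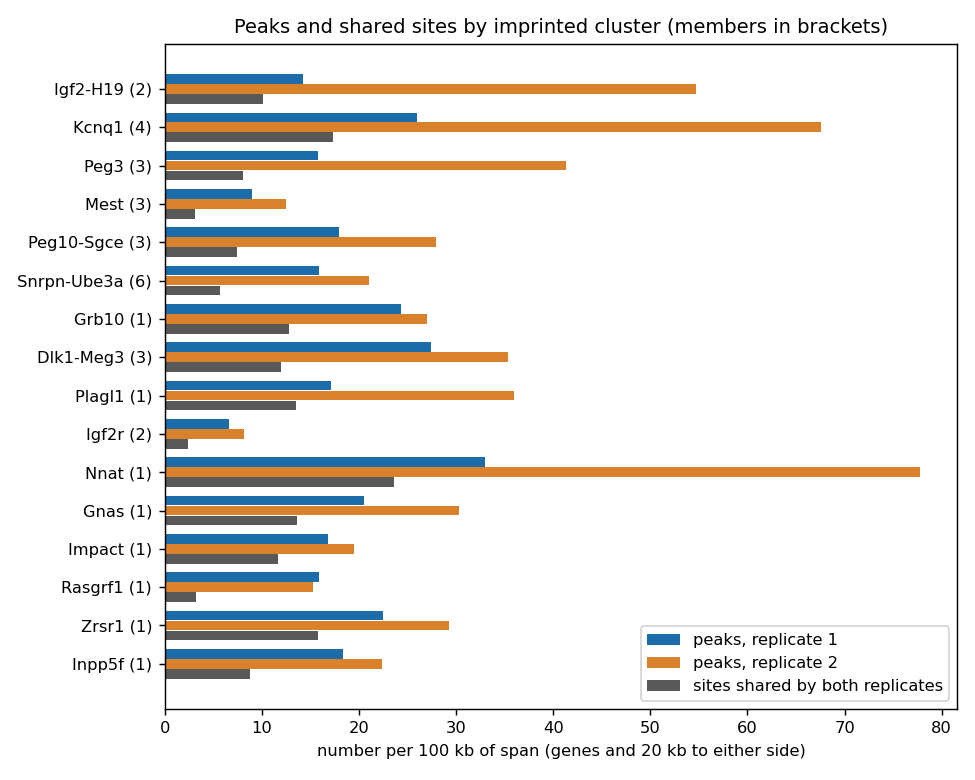
Bars give peaks per 100 kb of span (genes and 20 kb to either side, horizontal axis) in replicate 1 (blue) and replicate 2 (orange), and sites shared by both (dark grey), for the 16 clusters, with the number of imprinted genes in brackets. Nnat has the most shared sites, 23.6 per 100 kb, and Igf2r the fewest, 2.34, and the ratio of replicate 2 to replicate 1 is highest in the Igf2-H19 cluster, at 3.86.

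Other imprinted genes, a list of 47 that includes neighbours of these clusters, were counted by the same rule. A TSS peak in both replicates was present at 37 of the 47, beside 35.5% of all annotated genes and 67.3% of protein-coding genes. Among genes with a CpG-rich TSS, to which only part of the list belongs, the share was 95.4%. The list is not separate from the values above. The promoters of Airn, Kcnq1ot1 and Nespas are control regions already counted, and Igf2os had 47 and 53, the values of an Igf2 promoter. Neighbours with strong promoters were Nap1l4 with 140 and 85 in replicates 1 and 2, Tssc4 with 138 and 85, and Cd81 with 103 and 82, all in the Kcnq1 region. Kcnq1 itself, a potassium channel gene, had 27 and 28. The noncoding RNAs Rian and Snhg14 had 49 and 10 and 11 and 4. No peak in either replicate was found at 5 genes, namely Ins2, Nctc1, Slc22a2, Zim2 and Zim3.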

How the data were processed

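DNase-seq peaks and hotspots of each replicate were deposited on mm10 as separate lists, each from its own alignments per the file records. Which aligner and caller made them is not given in the sources used here. Each deposited peak signal is a whole number with no stated normalization, and the deposited hotspot q-value is on a −log10 scale with a ceiling of 100. The lists give no read totals, so read depth is unknown and no counting interval is given. Duplicate rows were dropped, and chromosomes 1 to 19 and X were kept. Gene models were GENCODE vM21, all transcripts of any gene type, on GRCm38.p6. Peaks of both replicates that overlapped by at least 1 bp were merged into a shared site. Percentiles are among all peaks of a replicate. Promoter-type control regions reached 1000 bp to either side of the most CpG-rich TSS of the anchoring gene. For Grb10 and Inpp5f this was the most CpG-rich TSS at least 5 kb inside the gene, and for Nespas the 5′-most. Intergenic regions were windows upstream of H19 (2 to 4 kb), Meg3 (10 to 16 kb) and Rasgrf1 (26 to 34 kb). These windows stand for the control regions and are not published boundaries.

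All 34 members were to be reported, those with the highest and lowest percentile of TSS signal by replicate, and other imprinted genes as counts with neighbours named. The sites away from TSSs that are named, and the 1000 bp window for the other CpG-rich promoters, were chosen after their values were seen. The members and lists were chosen with earlier results of these data known. No test was run, because there is 1 group. The counting steps were tested on simulated peaks. Python 3.11.15, numpy 2.4.6, pandas 2.3.3 and matplotlib 3.10.9 were used.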

Additional observations from a re-analysis of the deposited data

How the results depend on the processing

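The count of imprinted genes with a TSS peak in both replicates stayed at 31 with windows of 150 or 1000 bp, the stronger 50% of peaks, hotspots in place of peaks, basic transcripts only and overlapping peaks only, and was 31 in each replicate alone. The share of all annotated genes open by the same rules was 30.7% at 150 bp, 38.1% at 1000 bp, 34.7% with the stronger peaks, 36% with hotspots, 39.5% in replicate 1 alone and 41.6% in replicate 2 alone, against 35.5%. With RefSeq TSSs, an alternative added after seeing the data, 26 of the 27 genes with such a TSS were open, including Ndn. The closed one was Slc22a18. H19, Cdkn1c, Klf14, Peg10, Sgce, Rtl1 and Impact had no RefSeq TSS and left the count, and Rtl1 was closed by GENCODE. No share of all genes is given for RefSeq TSSs, basic transcripts only or overlapping peaks only, so those counts have no background beside them. All 16 control regions held a peak under each alternative tried, including the earlier Nespas window. No background share is given for these alternatives. With the main window 95.6% of genes with a CpG-rich TSS already had peaks of both replicates, so a full count is near its background for the promoter-type regions. Shared sites in the spans numbered 192 with a reciprocal overlap of 50%, 228 with the stronger peaks, and 204 and 322 with flanks of 5 and 50 kb, against 250. The median of peaks per 100 kb, averaged over replicates, was 25.5, and 29.9 and 22.7 with flanks of 5 and 50 kb. It ranged from 17.0 to 30.5 with either replicate left out. No paired analysis was possible because there is a single group. Signals of both replicates are not on a stated common scale, so their difference at a gene was not tested.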
